A study of Mus musculus with 15 samples.

Results

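The genes described here are 7 globins and 2 other genes of developing red cells, 9 of the 25292 genes in a read count table of mouse embryonic pancreas. They were taken by gene ID, through the GENCODE M21 annotation, for the symbols Hba-x, Hbb-bh1, Hbb-y, Hba-a1, Hba-a2, Hbb-bs, Hbb-bt, Alas2 and Slc4a1. All 9 were found and all 9 carried enough reads to be tested. The genes were chosen by name after fold changes between genotypes in these same libraries were known, Hbb-bh1 being among the largest. The levels and fold changes of the 9 genes are therefore given as a description, with no test, and tests are given for other erythroid genes only.

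Poly(A) RNA was sequenced from 15 libraries, 3 for each of 5 groups, all labelled as strain C57/Bl6J and embryonic pancreas. Fresh pancreata of wild-type (wt) and S1pr2 null embryos were collected at 14.5 days post coitum (dpc). The null allele is described in the study as S1pr2tm1Rlp, in which a Neo cassette interrupts exon 1 of the sphingosine-1-phosphate receptor gene S1pr2 in every cell. Wild-type explants, dorsal buds by the study's methods, were taken at 14.5 dpc and grown for 2 days in air-liquid interface culture without serum. They received standard medium (control), 15 uM of the S1pr2 antagonist JTE013 (JTE), or 15 uM of JTE013 with 50 ng/ml of connective tissue growth factor (JTE + CTGF). Each library pooled up to 3 pancreata, and the study states that the 3 libraries of a group were independent samples.

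Total counts lay between 11402804 and 13828737 reads per library. All 10 pancreas markers of a fixed list were detected in every library. Their summed level in CPM (counts scaled to the library total) was 3919 to 5010 in wt and 2257 to 2462 under the label S1pr2 null. In explants it was 7264 to 13901 CPM. Between the genotypes 5 of the 10 were lower under the label S1pr2 null and 0 higher at an adjusted p below 0.05. Over all genes tested, 13.3% were lower and 12.6% higher. S1pr2 reads were 1.77-fold more frequent under the label S1pr2 null than under wt (log2 fold change 0.83 ± 0.07, adjusted p = 4.5e-07). The allele interrupts an exon and counts per gene do not separate exons, so this count neither checks nor contradicts the label. The group is called "labelled S1pr2 null" throughout. The JTE libraries were the least alike, with a chi-square per gene of 17.2 and 23.2 between JTE library 3 and the other two, against 2.34 to 10.2 for replicate pairs outside that group.

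Haemoglobin is built from alpha-like and beta-like globin chains, each carrying haem. In the mouse, primitive red cells from the yolk sac express the embryonic genes Hba-x (zeta), Hbb-bh1 (beta-H1) and Hbb-y (epsilon-y), and definitive red cells from the fetal liver express the adult genes Hba-a1, Hba-a2, Hbb-bs and Hbb-bt. At mid-gestation both kinds of cell circulate, and blood vessels of the pancreas carry them. Alas2 encodes the red cell enzyme that starts haem synthesis, and Slc4a1 encodes band 3, the anion exchanger of the red cell membrane. The level of a globin gene in these libraries does not by itself tell which kind of red cell it came from. In bulk tissue, fewer red cells and less RNA per red cell cannot be told apart.

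The beta-like genes lie in 1 cluster on chromosome 7 of mm10, on the minus strand: Hbb-bt at chr7:103812524-103813996, Hbb-bs at chr7:103826534-103828096, Hbb-bh1 at chr7:103841636-103843164 and Hbb-y at chr7:103851745-103853240. The alpha-like genes lie on the plus strand of chromosome 11, with Hba-x at chr11:32276400-32278116, Hba-a1 at chr11:32283511-32284465 and Hba-a2 at chr11:32296489-32297298. Slc4a1 has 25 exon blocks at chr11:102348824-102366203 on the minus strand, and Alas2 has 11 at chrX:150547375-150570638 on the plus strand. Read counts cover the exons.

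How far a read can tell these genes apart depends on their sequence. The coding bases 61 to 150 of the 4 beta-like genes are shown because they hold this difference, with capitals at each base that differs from Hbb-bs.
Hbb-bs: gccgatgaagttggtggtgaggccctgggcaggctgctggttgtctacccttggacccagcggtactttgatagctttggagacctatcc
Hbb-bt: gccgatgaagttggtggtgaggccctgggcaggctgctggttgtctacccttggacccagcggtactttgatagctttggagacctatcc
Hbb-y: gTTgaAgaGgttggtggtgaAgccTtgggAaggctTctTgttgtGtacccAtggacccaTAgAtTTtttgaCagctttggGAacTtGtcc
Hbb-bh1: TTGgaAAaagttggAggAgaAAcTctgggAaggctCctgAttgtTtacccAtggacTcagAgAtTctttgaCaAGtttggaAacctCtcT

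In this stretch the adult pair did not differ, while Hbb-y differed from Hbb-bs at 21 bases and Hbb-bh1 at 25. Over the whole coding sequence Hbb-bs and Hbb-bt were alike at 443 of 444 bases, and Hbb-y was 74.3% identical to Hbb-bs and 76.4% identical to Hbb-bh1. The same coding bases of the alpha-like genes are given with capitals at differences from Hba-a1.
Hba-a1: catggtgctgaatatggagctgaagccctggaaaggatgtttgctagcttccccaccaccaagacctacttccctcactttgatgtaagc
Hba-a2: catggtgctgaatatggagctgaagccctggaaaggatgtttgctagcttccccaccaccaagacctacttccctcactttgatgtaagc
Hba-x: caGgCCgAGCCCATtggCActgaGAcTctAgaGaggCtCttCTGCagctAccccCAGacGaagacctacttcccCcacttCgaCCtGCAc

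Hba-a1 and Hba-a2 were alike at 428 of 429 coding bases, and Hba-x was 62.0% identical to Hba-a1 (35 differences in the stretch shown). A read from a stretch that 2 genes share was not counted for either, since only uniquely aligned reads were used. Of all 50-base words in the transcripts, 89.3% of those of Hba-a2, 72.3% of Hba-a1, 58.3% of Hbb-bt and 53.2% of Hbb-bs also occur in another gene. No word of Hbb-y, Hbb-bh1, Hba-x or Slc4a1 does, and 11.5% of those of Alas2 overlap its neighbour Apex2. Counts of the 4 adult globins are thus low by an unknown factor and uncertain between the copies, whereas the embryonic globins and Slc4a1 are free of this limit.

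The stretch before the start was read as well. The 120 bases before the RefSeq start are shown for an embryonic and an adult gene of each cluster (GRCm38.p6). Capitals mark every match on either strand to GATAA (the core that GATA factors bind), CACCC (the core that Klf1-type factors bind), CCAAT (the box of that name) and TATAA (the TATA box). The matches shown do not overlap one another. GENCODE starts of Hba-x, Hba-a1, Hbb-y and Hbb-bs lie upstream of the RefSeq starts, so the windows of Hba-x, Hba-a1 and Hbb-bs fall wholly inside the GENCODE gene and that of Hbb-y falls partly inside.
Hba-x, chr11:32276480-32276599, plus strand: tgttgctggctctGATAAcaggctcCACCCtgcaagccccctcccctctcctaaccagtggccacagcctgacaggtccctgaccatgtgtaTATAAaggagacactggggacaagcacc
Hba-a1, chr11:32283552-32283671, plus strand: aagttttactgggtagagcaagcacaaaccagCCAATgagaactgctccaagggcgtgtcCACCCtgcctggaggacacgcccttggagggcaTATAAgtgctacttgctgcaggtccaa
Hbb-y, chr7:103853208-103853327, minus strand: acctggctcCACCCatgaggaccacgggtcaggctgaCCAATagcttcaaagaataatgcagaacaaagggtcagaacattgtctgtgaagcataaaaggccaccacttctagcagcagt
Hbb-bs, chr7:103827929-103828048, minus strand: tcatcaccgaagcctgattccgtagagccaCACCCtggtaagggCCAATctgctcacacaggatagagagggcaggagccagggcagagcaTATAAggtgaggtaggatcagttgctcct

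CACCC was present in all 4 windows and in 31.7% of 32851 promoters of the same length. CCAAT was present in Hba-a1, Hbb-y and Hbb-bs and in 21.3% of promoters. TATAA lay 23 to 29 bases before the start in Hba-x, Hba-a1 and Hbb-bs and was present in 11.8% of promoters. GATAA was matched in the Hba-x window and in 10.5% of promoters. No marked motif set the embryonic genes shown apart from the adult genes shown. A match is a run of letters and not a measured site.

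In fresh wt pancreata, Hbb-y and the adult Hbb-bs were the most abundant members per whole exon length, at 447 ± 141 and 388 ± 16.2 reads per kilobase of exon, scaled to library size as RPKM (SD, n = 3). Next were Hba-a1 at 345 ± 23.0, Hbb-bt at 208 ± 10.1 and Hba-a2 at 196 ± 16.8, and the spread of Hbb-y overlapped those of Hbb-bs and Hba-a1, while the spreads of Hbb-bt and Hba-a2 overlapped each other. Hba-x stood at 63.5 ± 13.96, Alas2 at 10.4 ± 0.634, Slc4a1 at 5.44 ± 1.71 and Hbb-bh1 at 4.25 ± 1.15 on the same scale, the last 2 within each other's spread. The order among the first 5 depends on the length used. As normalised reads per unique 50-base position it was Hba-a2 (24.9 ± 2.13), Hba-a1 (16.7 ± 1.11), Hbb-bs (12.5 ± 0.523), Hbb-bt (6.73 ± 0.326) and Hbb-y (6.35 ± 2.00), the last 2 again within each other's spread. Globins together took 0.123% to 0.148% of all reads in wt, 0.140% to 0.190% in the libraries labelled S1pr2 null, and 0.00168% to 0.0173% in explants.

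**Figure D1:**
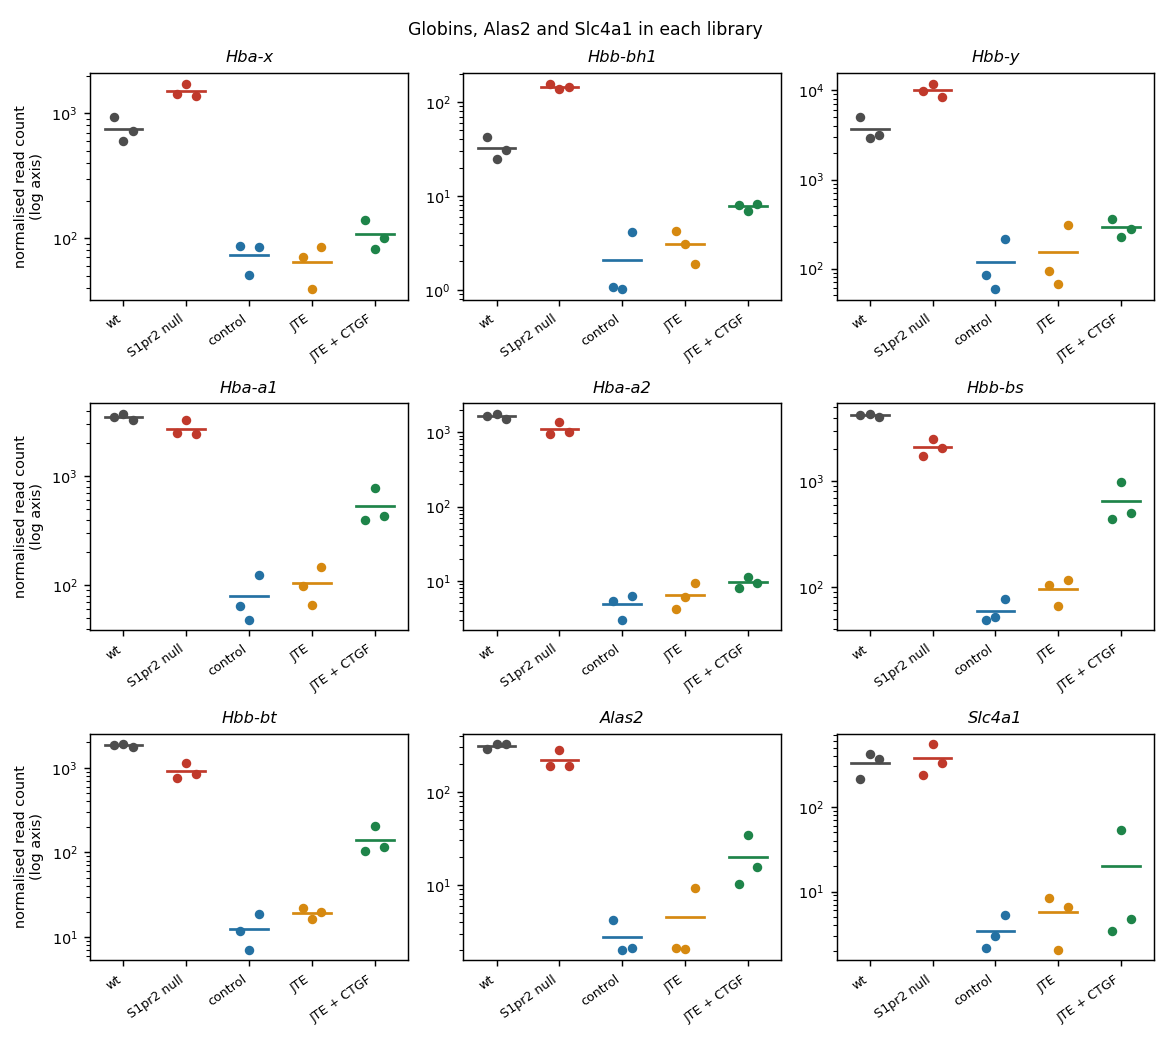
Normalised read count (log axis, scaled to the mean library) of the 9 genes in each of the 15 libraries, with 1 panel per gene, 1 point per library and a line at the mean of each group of 3. The 3 embryonic globins in the top row lie above wt in the libraries labelled S1pr2 null, the adult globins are lower or overlap, and every gene is far lower in the explants.

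In fresh pancreata the embryonic and adult globins differed between the genotypes in opposite directions. All 3 embryonic globins were higher in each library labelled S1pr2 null than in each wt library, and 4 members (Hba-a2, Hbb-bs, Hbb-bt and Alas2) were lower in each, while Hba-a1 and Slc4a1 overlapped. For comparison, 22.5% of the 16245 genes tested had groups that did not overlap in the higher direction and 23.8% in the lower direction, and because the genes were chosen with this contrast known, nothing is read from these counts.

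Hbb-bh1 is the least abundant of the embryonic globins. Its reads numbered 47, 26 and 33 in wt and 161, 148 and 171 in the libraries labelled S1pr2 null. The groups did not overlap, and the normalised means were 32.7 ± 8.84 and 146 ± 10.9 (SD, n = 3). The fitted difference was 2.15 ± 0.19 (SE) on the log2 scale. Hbb-y, the main embryonic beta-like gene, had 5605, 3012 and 3398 reads in wt and 9952, 12926 and 10072 reads in the libraries labelled S1pr2 null. Wt library 1 was the highest of its group, yet below each library of the other genotype, and the log2 fold change was 1.44 ± 0.32. Hba-x, the embryonic alpha-like gene, had 1028, 627 and 766 reads against 1459, 1870 and 1636, with a log2 fold change of 1.01 ± 0.16. The 3 embryonic genes thus stood 2.02-fold (Hba-x) to 4.44-fold (Hbb-bh1) higher, and none of these reads can come from the adult copies by shared 50-base sequence.

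Among the adult beta-like genes, Hbb-bs had 4721, 4539 and 4270 reads in wt and 1762, 2727 and 2426 in the libraries labelled S1pr2 null. Hbb-bt had 2061, 1999 and 1854 reads against 764, 1227 and 1005. Both were lower without overlap and by the same factor within their errors (log2 fold changes −1.003 ± 0.20 and −1.01 ± 0.14). Of the adult alpha genes, Hba-a2 had 1848, 1848 and 1589 reads against 955, 1487 and 1188 (log2 fold change −0.57 ± 0.11), and Hba-a1 had 3921, 3915 and 3496 against 2522, 3561 and 2931 (−0.36 ± 0.20). The adult alpha genes therefore differed less than the adult beta genes, and in Hba-a1 the second library labelled S1pr2 null lay within the wt range.

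Alas2 had 323, 336 and 347 reads in wt and 193, 301 and 227 in the libraries labelled S1pr2 null, a log2 fold change of −0.51 ± 0.20. Slc4a1, with 240, 434 and 395 reads against 240, 600 and 391, overlapped fully (0.16 ± 0.34). For both genes the second library labelled S1pr2 null was the highest of its group. The median log2 fold change of the 7 globins was −0.36, beside −0.01 over all genes tested.

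The balance within each globin family compares genes in the same library. The embryonic share of beta-like globin, Hbb-y and Hbb-bh1 in the sum of all 4 genes on counts per kilobase of exon, was 50.5%, 36.2% and 40.6% in wt and 83.0%, 80.1% and 78.5% in the libraries labelled S1pr2 null. The means were 42.4% ± 7.29 and 80.6% ± 2.28 (SD, n = 3), and the groups did not overlap. Hba-x made up 10.5% ± 2.28 of alpha-like counts per kilobase in wt and 24.4% ± 1.19 in the libraries labelled S1pr2 null. Since reads from the shared parts of the adult genes were not counted, these shares are too high for the embryonic genes. Counted per unique 50-base position instead, the beta-like shares were 24.7% ± 5.63 and 64.6% ± 3.36, and the alpha-like shares 2.00% ± 0.471 and 5.47% ± 0.391, again without overlap.

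**Figure D2:**
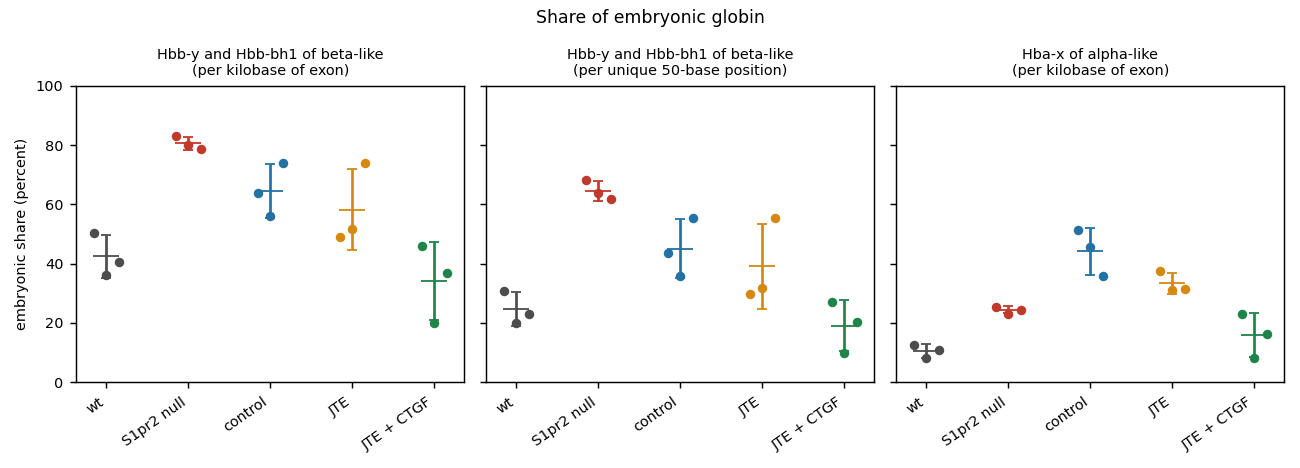
Percent of embryonic globin in each library, with the mean and SD of each group of 3 libraries, for beta-like genes on 2 length scales and for alpha-like genes. The libraries labelled S1pr2 null lie above wt in all 3 panels, and JTE + CTGF explants lie below control explants in all 3.

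Of the 46 other erythroid genes found in the table (of 47 listed), 40 were tested, and in this comparison 1 was higher and 8 were lower in the libraries labelled S1pr2 null at an adjusted p below 0.05. Over all genes tested, 12.6% were called higher and 13.3% lower. The median log2 fold change of the 40 genes was −0.08. The lower genes comprised Zfpm1, a partner of GATA factors (−0.44 ± 0.08, adjusted p = 0.000428), Cpox and Fech, enzymes of haem synthesis (−0.50 ± 0.10, adjusted p = 0.00165, and −0.17 ± 0.06, adjusted p = 0.0407), and the iron transporters Slc11a2 (−0.42 ± 0.07, adjusted p = 0.000586) and Slc25a37 (−0.41 ± 0.14, adjusted p = 0.0469). The transferrin receptor Tfrc (−0.27 ± 0.06, adjusted p = 0.00417), the glycolytic enzyme Pklr (−0.52 ± 0.14, adjusted p = 0.0105) and the membrane protein Epb42 (−0.56 ± 0.14, adjusted p = 0.00752) were lower as well. Blvrb, a biliverdin reductase, was higher (0.29 ± 0.09, adjusted p = 0.0279). The called genes are not all confined to red cells. Zfpm1 stood at a normalised 1613 in wt and 1382 in control explants, where Gata1 fell from 11.9 to 0.69 and Epb42 from 151 to 18.5. Rhag, Kel, Ermap and Hemgn, which kept few or no reads after culture, were not called between the genotypes. Red cell and other transcripts of the called genes cannot be separated in these libraries. Without the first library labelled S1pr2 null the number called was 5 in place of 9. Fech, Slc25a37, Blvrb and Pklr were each lost without at least 1 library of these groups.

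The red cell transcription factors Gata1 and Klf1 did not pass the test. Gata1, the master regulator of the lineage, had 11, 19 and 8 reads in wt and 12, 23 and 18 in the libraries labelled S1pr2 null (0.44 ± 0.41, adjusted p = 0.475). Klf1, which activates adult beta globin, had 21, 35 and 38 reads against 11, 41 and 27 (−0.29 ± 0.45, adjusted p = 0.688). In both genes library 1 of each genotype was the lowest, except for Gata1 in wt, and the spread within a genotype exceeded the difference between genotypes. Car1 had at most 3 reads in any library and was not tested.

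Genes known to set the switch from embryonic to adult globin were tested as a list of 6, and all 6 passed the test in this comparison, where 25.8% of all genes did. They are named after their values were seen, and the list was set with earlier results of these data known. Bcl11a, a repressor of embryonic globin in definitive red cells, rose (0.66 ± 0.07, adjusted p = 9.33e-06), as did its partner Sox6 (0.46 ± 0.06, adjusted p = 4.38e-05). The fetal RNA-binding proteins Igf2bp1 (0.43 ± 0.06, adjusted p = 3.49e-05) and Lin28b (1.24 ± 0.25, adjusted p = 0.00143) rose too. Myb, needed for definitive blood progenitors, and the repressor Zbtb7a fell (−0.47 ± 0.11, adjusted p = 0.005, and −0.30 ± 0.08, adjusted p = 0.012), the latter not past the test without wt library 2 or 3. All 6 are also expressed outside blood, and pancreatic and red cell transcripts of them cannot be separated in these libraries.

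Markers of other tissues that make or hold blood were read in the same libraries. The fetal liver is a neighbour of the pancreas and the site of adult-type red cell formation at this stage. The summed level of 8 hepatocyte markers was 73.3 to 141 CPM in wt and 56.0 to 69.1 CPM in the libraries labelled S1pr2 null, with none of the 8 at 0 in any library and 1 of 8, Apoa1, passing the test (−1.25 ± 0.28, adjusted p = 0.00363), beside 13.3% of all genes lower. The median log2 fold change of the 8 hepatocyte markers was −0.86, with 7 below 0 and 1 above, beside −0.01 over all genes tested. The spleen primordium lies beside the dorsal pancreas. Its mesenchymal markers Tlx1 and Nkx2-5 summed to 13.6 to 17.3 CPM in wt and 26.5 to 50.7 CPM in the libraries labelled S1pr2 null, and both rose (log2 fold changes 1.09 ± 0.19 and 2.06 ± 0.50, adjusted p = 0.000405 and 0.00585). Of 10 macrophage markers 1 was higher and 1 lower, of 10 endothelial markers 2 were higher, and of 4 tested platelet markers 0 were called. The part of these cells in the globin differences was not tested.

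**Figure D3:**
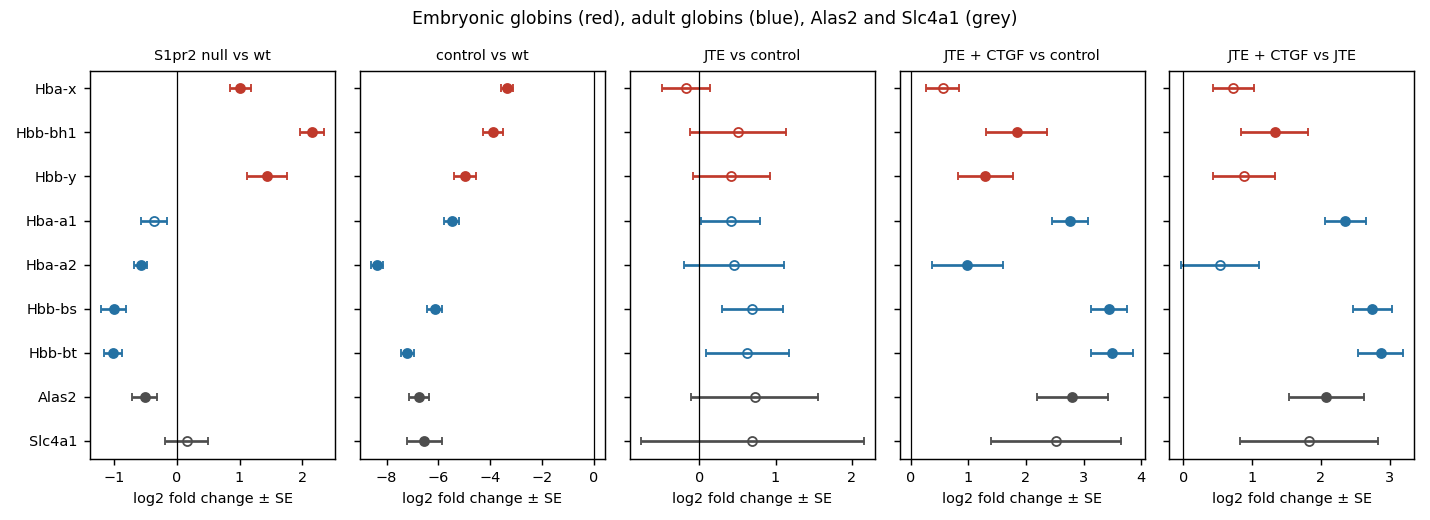
Log2 fold change of the 9 genes with its standard error in 5 comparisons, each on its own axis, first group minus second. Filled points mark genes whose groups of 3 libraries do not overlap and open points those that do; the embryonic globins (red) lie above 0 and the adult beta globins (blue) near −1 between the genotypes, and in explants given CTGF the adult beta globins lie highest.

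Every member stood far lower after culture. In control explants all 9 genes were below every wt library, where 33.1% of all genes tested were lower and 30.7% higher without overlap, and the median of the 7 globins was −5.48 on the log2 scale beside −0.02 over all genes. Stage, dissection and the lack of circulation differ between these groups together with the culture and cannot be told apart.

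The drop was uneven. Hba-x kept the most, with 82, 50 and 81 reads in control explants (log2 fold change −3.34 ± 0.22), followed by Hbb-bh1 with 1, 1 and 4 reads (−3.91 ± 0.39) and Hbb-y with 79, 58 and 205 reads (−4.97 ± 0.42). The adult genes lay lower, with 61, 48 and 119 reads of Hba-a1 (−5.48 ± 0.29) and 46, 52 and 74 of Hbb-bs (−6.14 ± 0.29). The lowest were Hbb-bt with 11, 7 and 18 reads (−7.19 ± 0.26) and Hba-a2 with 5, 3 and 6 (−8.37 ± 0.23). Alas2 had 4, 2 and 2 reads and Slc4a1 had 2, 3 and 5, with log2 fold changes of −6.76 ± 0.38 and −6.54 ± 0.68. All 3 embryonic genes thus lost less than any adult gene. Control library 3 was the highest in Hbb-y and Hbb-bh1, and without it their log2 fold changes were −5.71 and −4.83, beside −5.96 for Hba-a1. The ratio of Hbb-bh1 reads to wt was 0.0629, with a 95% counting interval of 0.0226 to 0.142.

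Within families the same tilt appeared. The embryonic share of beta-like globin was 63.7%, 56.0% and 74.0% in control explants, above all wt libraries, and the mean was 64.6% ± 9.02. Hba-x made up 44.2% ± 7.94 of alpha-like globin against 10.5% ± 2.28 in wt, or 16.5% ± 4.02 against 2.00% ± 0.471 per unique position. The 2 near-identical adult pairs also changed in balance. Hba-a2 was 36.2% ± 0.493 of adult alpha in wt and 7.31% ± 1.66 in control explants, and Hbb-bt was 34.9% ± 0.163 of adult beta in wt and 19.96% ± 5.0 in control explants. These last shares rest on few reads and on genes whose copies share most of their sequence. All libraries are labelled as the same strain, and whether their globin alleles were alike was not tested. The falls of the globins after culture, the balance of the adult pairs and the embryonic shares of explants against wt carry that limit.

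Most of the other erythroid genes tested were lower after culture, with a smaller median difference than the globins. Of the 40 tested, 6 were higher and 26 lower in control explants than in wt, beside 28.5% and 29.3% of all genes, and their median was −0.52. Red cell membrane genes made the largest group, with 1 of 13 higher and 10 lower. Among them were Epb42 (−3.01 ± 0.18, adjusted p = 4.92e-10), the blood group antigen Kel (−4.90 ± 0.71, adjusted p = 1.52e-05) and the erythroid membrane protein Ermap (−3.88 ± 0.59, adjusted p = 2.68e-05). Rhag, of the Rhesus complex, had 36 reads in all in wt and 0 in control, which makes it at least 10.8-fold lower against a floor of 3 reads over the group. Kel was at −5.74 without control library 2 and Ermap at −4.60 without control library 1.

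Of 7 transcription factors tested, 6 were lower and the other was not called. Tal1 (−1.01 ± 0.20, adjusted p = 0.000315), Gata1 (−3.87 ± 0.79, adjusted p = 0.000889), Nfe2 (−1.18 ± 0.30, adjusted p = 0.00292) and Klf1 (−1.59 ± 0.54, adjusted p = 0.0185) fell. Gata1 was left with 0, 0 and 2 reads, while Klf1 kept 7, 15 and 6. Without control library 3 Gata1 had no read in control, so the size of its fold change there cannot be given. Klf1 was no longer called without wt library 2 or 3 or control library 1 or 3. Hemgn, a nuclear protein of red cell precursors, fell from 107 reads in all to 0, at least 32.1-fold lower, and Trim10 fell by 4.65 on the log2 scale (SE 0.63, adjusted p = 7.72e-06), or 5.57 without control library 3. The spread in Hemgn was large in wt, with 15, 51 and 41 reads.

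Haem and iron genes, which all cells use, did not share the size of this drop. The haem enzymes Fech (−0.67 ± 0.06, adjusted p = 7.06e-08) and Ppox (−0.55 ± 0.11, adjusted p = 0.000347) fell, and Alad rose (0.82 ± 0.06, adjusted p = 2.89e-09). In iron handling Slc25a37 fell (−0.75 ± 0.15, adjusted p = 0.000365), Slc11a2 rose (0.42 ± 0.07, adjusted p = 8.39e-05) and Steap3 rose (0.74 ± 0.15, adjusted p = 0.000403), and Tfrc had a log2 fold change of −0.15 ± 0.06 (adjusted p = 0.0555). Pklr rose (1.25 ± 0.13, adjusted p = 2.78e-07) and so did Tmod1 (1.18 ± 0.22, adjusted p = 0.000186). Cytoglobin (Cygb), a globin of fibroblasts outside the red cell lineage, rose (1.94 ± 0.08, adjusted p = 7.08e-12), opposite to the 7 red cell globins. Among cell type markers in the same contrast, 8 of 10 macrophage genes were higher and 1 lower, 5 of 10 endothelial genes were higher and 4 lower, and 3 of 4 tested platelet genes were lower. The summed hepatocyte markers lay at 46.7 to 59.9 CPM. The part of these cells in the result was not tested.

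**Figure D4:**
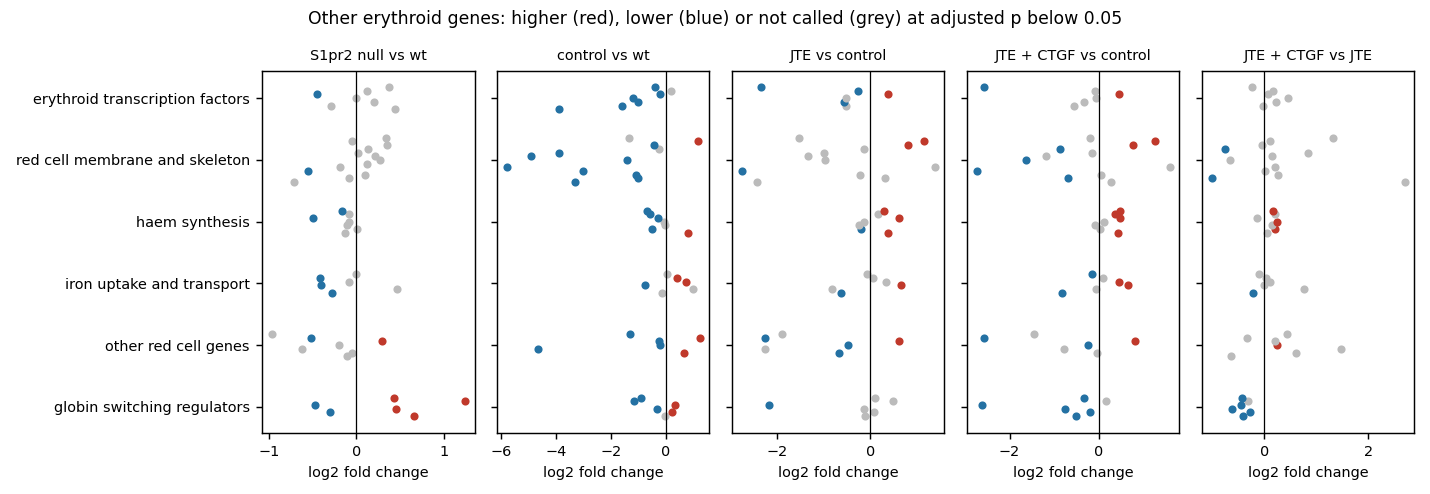
Log2 fold change of each tested gene of 5 erythroid lists and of 6 globin switching regulators, in 5 comparisons with their own axes. Points are genes, coloured where the adjusted p is below 0.05, and genes with no read in a group are left out. In control explants against wt several membrane genes lie far to the left, others lie nearer the middle and 1 lies to the right. All 6 switching regulators are coloured between the genotypes.

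The explant comparisons share libraries: JTE and JTE + CTGF were each set against the same 3 controls, and those against wt above. Against control, JTE explants overlapped in all 9 genes, whereas 28.4% of all genes tested were higher and 28.3% lower without overlap. Hbb-y had 88, 65 and 328 reads with JTE and Hbb-bs had 99, 64 and 126, while Hba-a1 had 92, 65 and 159. Library 3 was the highest in each. Log2 fold changes ran from −0.17 ± 0.31 (Hba-x) to 0.73 ± 0.83 (Alas2), with a globin median of 0.45. Without JTE library 3 that of Hbb-y was −0.57 in place of 0.42 and that of Alas2 −0.39 in place of 0.73. The counting interval of the ratio to control spanned 1 for Hba-x (0.728 to 1.08), Hbb-bh1 (0.46 to 4.95), Hba-a2 (0.663 to 2.95), Alas2 (0.662 to 4.65) and Slc4a1 (0.71 to 4.01). It lay above 1 for Hbb-y (1.18 to 1.56), Hba-a1 (1.13 to 1.59), Hbb-bs (1.34 to 1.97) and Hbb-bt (1.01 to 2.43), whose groups overlapped as well. The intervals leave out the spread between libraries, so they do not decide whether a member differed. The embryonic share of beta-like globin was 49.1%, 51.6% and 74.0%, with a mean of 58.2% ± 13.7. JTE libraries 1 and 2 lay below the lowest control library (56.0%) and library 3 at the level of the highest. Without JTE library 3 the mean was 50.4%.

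Among the other erythroid genes JTE gave 8 higher and 9 lower of 40, against 25.9% and 26.2% of all genes. Lyl1, a factor of blood progenitors and endothelium, fell (−2.33 ± 0.20, adjusted p = 5.79e-08), and Tal1 (−0.56 ± 0.23, adjusted p = 0.0475) and Lmo2 (−0.26 ± 0.09, adjusted p = 0.0289) fell as well. Tal1 lost its call in 10 of 15 fits without 1 library, and Lmo2 without control library 1, control library 2 or JTE library 1. Zfpm1 rose (0.37 ± 0.08, adjusted p = 0.000571). Epb42 (−2.75 ± 0.35, adjusted p = 6.63e-06) and Pklr (−2.25 ± 0.14, adjusted p = 1.51e-09) fell, Tfrc fell (−0.63 ± 0.06, adjusted p = 5.77e-07), and Bpgm fell (−0.47 ± 0.08, adjusted p = 6.78e-05). The haem enzymes Cpox (0.61 ± 0.10, adjusted p = 7.57e-05), Alad (0.37 ± 0.06, adjusted p = 2.6e-05) and Fech (0.29 ± 0.06, adjusted p = 0.000809) rose together with Slc25a37 (0.65 ± 0.15, adjusted p = 0.00154), Blvrb (0.62 ± 0.10, adjusted p = 4.98e-05) and the skeleton genes Tmod1 (1.15 ± 0.18, adjusted p = 4.26e-05) and Dmtn (0.80 ± 0.17, adjusted p = 0.000659). Gata1 had no read in any JTE library. Of the switching regulators Myb fell (−2.18 ± 0.13, adjusted p = 7.11e-10) and the other 5 were not called. In the same explants all 10 macrophage markers and 7 of 10 endothelial markers were lower, and the summed hepatocyte markers stood at 12.8 to 13.4 CPM. Whether these cells have a part in the change of the lists was not tested.

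With CTGF added to JTE013, Hba-a1, Hbb-bs, Hbb-bt, Alas2 and the embryonic Hbb-bh1 stood above both other explant groups. Against control 7 of the 9 genes were higher without overlap (30.4% of all genes tested were, and 34.4% were lower), and against JTE 5 were (19.6% of all genes, with 20.6% lower). The globin median was 1.84 against control and 1.33 against JTE, beside −0.03 and 0.00 over all genes tested.

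Hbb-bs had 387, 863 and 423 reads in JTE + CTGF, against 46 to 74 in control and 64 to 126 in JTE. Its log2 fold change was 3.44 ± 0.31 against control and 2.74 ± 0.28 against JTE. Hbb-bt had 92, 178 and 98 reads, against 7 to 18 and 16 to 21, with log2 fold changes of 3.5 ± 0.36 and 2.87 ± 0.33. Hba-a1 had 349, 679 and 366 reads (2.77 ± 0.31 and 2.35 ± 0.29), and Alas2 had 9, 30 and 13 (2.80 ± 0.62 and 2.08 ± 0.55). In these 4 genes library 2 was the highest, and libraries 1 and 3 also exceeded every control and JTE library, in Alas2 only narrowly over JTE library 3. Without JTE library 3 the log2 fold change of Alas2 against JTE was 3.23.

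Hba-a2 had the smallest fold change of the adult genes. It had 7, 10 and 8 reads in JTE + CTGF, a log2 fold change of 0.98 ± 0.62 against control. Its normalised counts of 8.00 to 11.5 lay above those of control (3.02 to 6.25) and overlapped those of JTE. The counting interval of its ratio to control spanned 1 (ratio 2.00, 0.998 to 4.15). Hba-a2 made up 2.25% ± 0.432 of adult alpha globin in JTE + CTGF, against 7.31% ± 1.66 in control and 36.2% ± 0.493 in fresh wt. Hba-a1 and Hba-a2 share most of their words, and which copy a read fits best is decided by few bases.

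The embryonic globins had smaller fold changes than Hba-a1, Hbb-bs and Hbb-bt. Hbb-y had 317, 200 and 234 reads (1.29 ± 0.48 against control), just above the 205 reads of control library 3 after scaling and overlapping JTE (0.87 ± 0.45). Hbb-bh1 had 7, 6 and 7 reads (ratio to control 3.73, counting interval 1.44 to 11.3, and to JTE 2.57, counting interval 1.12 to 6.41) and lay above both other groups, and Hba-x had 123, 72 and 85 and overlapped both other groups (0.55 ± 0.29 and 0.73 ± 0.29). Without control library 3 the log2 fold changes of Hbb-y and Hbb-bh1 against control were 2.03 and 2.76, and without JTE library 3 that of Hbb-y against JTE was 1.90. The embryonic share of beta-like globin was 45.9%, 19.95% and 36.7% in JTE + CTGF, below each control and each JTE library, with a mean of 34.2% ± 13.1. For Hba-x among alpha-like globin the mean was 15.9% ± 7.35 against 44.2% ± 7.94 in control, or 4.86% ± 2.48 against 16.5% ± 4.02 per unique position.

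JTE + CTGF library 2 stood apart in genes of liver and mature red cells. Slc4a1 had 3, 46 and 4 reads in the 3 libraries, and its log2 fold change against control was 2.52 ± 1.13 with all libraries and 0.23 without library 2. Against JTE it was 1.83 with all libraries and −0.46 without library 2. The 8 hepatocyte markers summed to 13.1, 95.8 and 13.7 CPM, with Alb at 23, 237 and 17 reads and Afp at 69, 682 and 63. Ahsg (1, 45 and 3 reads), Apoa2 (2, 25 and 3) and Fgg (1, 9 and 1) were also highest in library 2. Fgb (33, 35 and 44), Apoa1 (11, 13 and 9) and Serpina1a (4, 5 and 5) were not set apart in it, so the sum rests mainly on Afp and Alb. None of the 8 was at 0 in any library. Without library 2 the log2 fold change against control was 2.99 for Hbb-bs, 3.14 for Hbb-bt, 2.40 for Hba-a1 and 2.16 for Alas2. Against JTE it was 2.29, 2.51, 1.99 and 1.43 in the same order. Libraries 1 and 3, with hepatocyte markers at the level of JTE (12.8 to 13.4 CPM), held 43.6 and 49.1 CPM of Hbb-bs and Hbb-bt together, against 6.51 to 10.9 CPM in JTE.

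**Figure D5:**
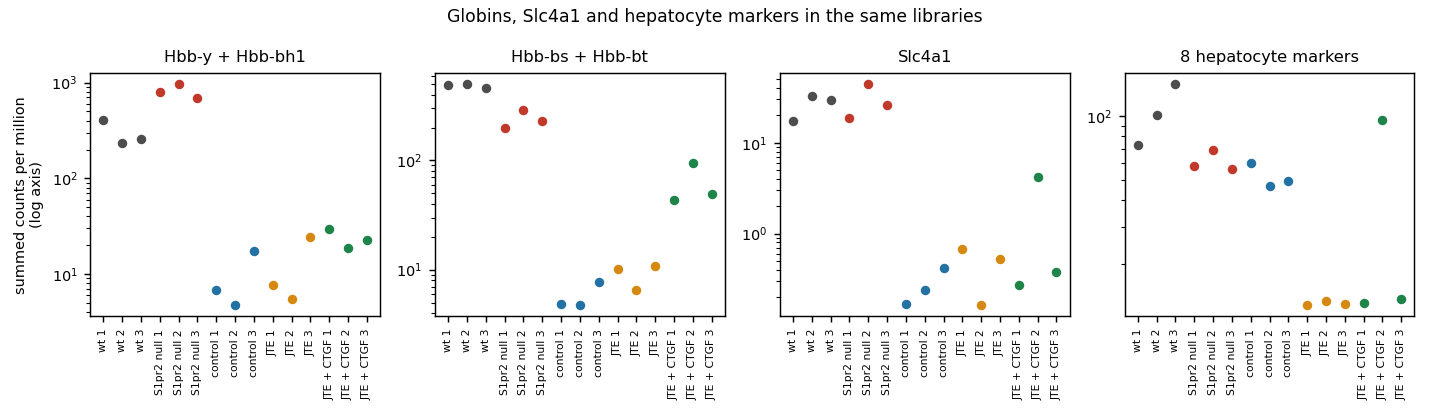
Summed CPM (log axis) of the embryonic and adult beta-like globins, Slc4a1 and 8 hepatocyte markers in each of the 15 libraries, coloured by group. JTE + CTGF library 2 is the highest explant in adult globin, Slc4a1 and hepatocyte markers, whereas JTE + CTGF libraries 1 and 3 lie above all control and JTE libraries in adult globin but not in Slc4a1 or hepatocyte markers.

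Few of the other erythroid genes were called between JTE + CTGF and JTE. In this comparison 4 of 40 were higher and 3 lower (13.6% and 16.8% of all genes), and Urod (0.25 ± 0.06, adjusted p = 0.0055), Fech (0.17 ± 0.06, adjusted p = 0.0398) and Bpgm (0.24 ± 0.08, adjusted p = 0.031) were among the higher genes. Sptb (−1.01 ± 0.23, adjusted p = 0.00303), Add2 (−0.74 ± 0.26, adjusted p = 0.0395) and Tfrc (−0.21 ± 0.07, adjusted p = 0.0239) were lower. Of these 6 genes, Fech, Bpgm, Add2 and Tfrc lost their call without JTE library 1. The number called was 3 without JTE library 1, 3 without JTE + CTGF library 2 and 2 without JTE + CTGF library 3. Klf1 had 8, 9 and 0 reads, and Gata1 and Rhag had 0 reads in all JTE + CTGF and JTE libraries, which allows up to 3 reads per group.

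Against control, 10 of the 40 were higher and 9 lower, beside 28.1% and 33% of all genes. The haem enzymes Alad (0.42 ± 0.06, adjusted p = 5.46e-06), Fech (0.46 ± 0.06, adjusted p = 6.25e-06), Cpox (0.46 ± 0.10, adjusted p = 0.000767) and Ppox (0.36 ± 0.11, adjusted p = 0.00993) rose, and so did Blvrb (0.81 ± 0.10, adjusted p = 1.73e-06). Lyl1 (−2.57 ± 0.21, adjusted p = 2.57e-08), Epb42 (−2.73 ± 0.37, adjusted p = 7.09e-06), Pklr (−2.57 ± 0.15, adjusted p = 3.95e-10) and Tfrc (−0.83 ± 0.07, adjusted p = 1.63e-08) fell. Of the 6 switching regulators 5 fell against control and 5 against JTE. Among these calls Zbtb7a against control was lost with a replicate block (adjusted p = 0.0567) and in 9 of 15 fits without 1 library, and Myb against JTE was lost with DESeq2 (adjusted p = 0.0698) and in 8 of 15. Bcl11a had a log2 fold change of −0.51 ± 0.08 (adjusted p = 4.53e-05) and −0.41 ± 0.08 (adjusted p = 0.00148), and Sox6 of −0.76 ± 0.07 (adjusted p = 7.02e-08) and −0.62 ± 0.07 (adjusted p = 5.74e-06). Igf2bp1 fell by 0.33 (SE 0.06, adjusted p = 0.000211) and by 0.43 (SE 0.06, adjusted p = 7.56e-05).

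Over all 15 libraries the genes most like a member in pattern were found by Pearson's r of log2 CPM. All libraries of 1 kind, fresh or cultured, share most of that pattern, so r is a description and carries no test. Hbb-bh1 was followed by Crabp2 (r = 0.97), which binds retinoic acid, then by Arxes1, Gstk1, Ephb3 and Adrb3 (r = 0.96 to 0.97). Crabp2 stood at a normalised 57.1 ± 8.96 in wt, 112 ± 8.18 in the libraries labelled S1pr2 null and 6.56 ± 4.34 in control. Among the 5 genes most like Slc4a1 were Gm3468, Rgcc, Siva1 and Gm16380 (r = 0.96 to 0.97). Hbb-bs was followed by Dbf4, Rpl34-ps1, Tcp1, 0610037L13Rik and Srp9 (r = 0.96 to 0.97), and Alas2 by Paics, Fkbp3, Fbxo27, Il11ra1 and Tcp1 (r = 0.97 to 0.98). None of the genes that followed Hbb-bs or Alas2 was on the erythroid lists.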

How the data were processed

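Poly(A) RNA of 15 libraries (5 groups of 3, grouped and numbered by sample title) was sequenced by the authors, who aligned single-end reads to mm10 with GSNAP and deposited raw counts of uniquely aligned reads per Ensembl gene from featureCounts (version 1.4.6 in the submitters' processing notes). Whether counting used the strand was not given in the sources used here, so reads of overlapping genes may be shared. No row lacked a gene name and no column was left unmapped.

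Symbols came from GENCODE M21 and were found for 24750 IDs. Ahsp was not matched and was not analysed here. Differences in counts were tested in edgeR 4.0.16 (R 4.3.3) by its quasi-likelihood F-test, TMM factors, filterByExpr and no covariate, all 15 libraries in 1 fit, with Benjamini-Hochberg adjustment over 16245 genes and calls below 0.05. Normalised counts were scaled to the mean of the TMM-adjusted library totals. Values per kilobase use the deposited exon length. The members, lists and tests were chosen with earlier results of these data known. The genes named are the members, up to 4 called genes per list by smallest adjusted p, Gata1, Klf1, Car1 and Tfrc in any case, S1pr2, and for 4 members the 5 genes of highest correlation. Tmod1, Rhag, switching regulators, Cygb, marker genes and Alb and Afp beyond that rule were chosen after their values were seen. Some listed genes enter the counts but are not reported here. The p-values measure the spread between pooled samples.

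Counting intervals (95%, exact binomial) and the floor of 3 reads cover counting error only. Shared 50-base words and coding sequences were computed from GENCODE transcripts. Promoters came from RefSeq tables (GRCm38.p6), which matched 7 of the 9 members. The test was tried on simulated counts. DESeq2 1.42.0, other size factors, no filter, the study's own call rule, the 2 groups alone, a replicate block and leaving out each library were tried as alternatives. Plots were drawn with matplotlib 3.10.9.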

Additional observations from a re-analysis of the deposited data

How the results depend on the processing

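The counts of other erythroid genes called stayed within 1.5 times of 9, 32, 17, 19 and 7 (labelled S1pr2 null against wt, control against wt, JTE against control, JTE + CTGF against control and against JTE) with DESeq2, other size factors, members left out of the library size and no filter. The study's rule allows an adjusted p up to 0.1 but asks for a mean above 100 and a fold below 0.6 or above 1.6. It called 0, 7, 3, 5 and 1 in that order. By edgeR 13 of the 40 had an unadjusted p below 0.05 in the first, and DESeq2 called 8. With only the 2 groups in the fit the last count was 4. Leaving out 1 library moved the counts to 5 to 10, 24 to 34, 13 to 18, 14 to 19 and 2 to 7. Deviations of same-numbered libraries correlated at −0.08 to 0.21, highest for library 3 of JTE and control. These values do not settle whether libraries of the same number were paired. A replicate block gave 9, 33, 19, 19 and 8. Among calls given by gene name, Fech and Slc25a37 between genotypes lost theirs in 6 and 7 of the 15 fits without 1 library, Tal1 (JTE against control) in 10, and Fech (JTE + CTGF against JTE) in 5. Blvrb between genotypes, Klf1 in control against wt and Add2 in JTE + CTGF against JTE lost theirs in 4, Lmo2 (JTE against control), and Tfrc and Bpgm (JTE + CTGF against JTE) in 3, and Pklr and Zbtb7a between genotypes in 2. With only the 2 groups in the fit Add2 had an adjusted p of 0.0586. The order of members per unique position was chosen after seeing the data. With DESeq2 the adjusted p was 0.113 for Fech between genotypes, 0.0519 for Tal1, and 0.0772 for Fech in JTE + CTGF against JTE.

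The median globin log2 fold change ran from −0.51 to −0.29, −5.96 to −5.22, 0.10 to 0.92, 1.51 to 2.76 and 1.27 to 1.90 without 1 library. In 2-group fits, where 5 of 7 globins passed the filter, it was 2.79 and 2.37 for JTE + CTGF against control and against JTE. The embryonic beta-like share per unique position was 24.7% (wt), 64.6% (labelled S1pr2 null), 45.0% (control), 39.0% (JTE) and 19.1% (JTE + CTGF), and 77.2% on raw reads for the libraries labelled S1pr2 null. Per kilobase of exon the share without 1 library ran from 38.4% to 45.5%, 79.3% to 81.6%, 59.9% to 68.9%, 50.4% to 62.8% and 28.3% to 41.3% in the same order of groups. Klf1, uncalled and with few reads, changed sign without 1 library, with log2 fold changes of −0.78 to 0.041 between genotypes, −1.03 to 0.012 for JTE + CTGF against control and −0.51 to 0.54 against JTE. Genes under about 10 reads per library, such as Hba-a2, Hbb-bh1 and Slc4a1 in explants, are limited by depth.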
